A study of Mus musculus with 2 samples.

Results

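At E9.5 the mandibular arch library contained 410 cells with Twist1 or Prrx1 and at least 2 Hand2 transcripts, out of 12744 cells kept from the E9.5 library and 24099 kept over both stages of the series. Each of the 410 cells had at least 2 UMIs (unique molecular identifiers, 1 per captured RNA molecule) over Twist1 and Prrx1 together and at least 2 of Hand2. Each had none of Sox10 (migratory crest and glia), Epcam (epithelium) or Cdh5 (endothelium), and at most 2 over Tbx1, Msc and Tcf21 (muscle precursors of the arch). These values chose the cells, so the levels of these 9 genes are given only as a description. The 410 cells, called Hand2-positive cells here, were 3.22% of the kept E9.5 cells (95% Clopper-Pearson interval 2.92 to 3.54) and 10.4% of the 3935 cells that met all conditions other than that on Hand2. They were compared with the 3160 of those 3935 cells that had no Hand2 UMI. The remaining 365 cells had exactly 1 Hand2 UMI and lay just outside the rule.

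The study was set up to map cell populations of the mouse mandibular epithelium, and the E9.5 library is its earlier stage, taken with the mesenchyme in place. It came from the mandibular arches of 8 K14Cre;R26mT/mG embryos, pooled and not sorted, at an age of E9.5 and with no treatment. The Cre of that genotype is driven by the keratin 14 promoter, an epithelial promoter, and the reporter was not used here. The second library held E12.0 epithelium from 6 pooled embryos of the same genotype, sorted for the GFP that the reporter gives after Cre. Each stage was 1 library, so there was no replicate, no test was run and no p-value is given. Intervals are 95% and cover counting error only. The 14293 barcodes of the E9.5 library held 208540526 UMIs, and the median kept cell had 13460.5 UMIs. Hand2-positive cells had a median of 15656 UMIs and Hand2-negative cells of 14084.5.

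Hand2 encodes a basic helix-loop-helix transcription factor, and its name (heart and neural crest derivatives expressed) gives both places it is best known for. In the arch, endothelin 1 from the epithelium and the arch core acts through the receptor Ednra on neural crest-derived mesenchyme and turns on Dlx5 and Dlx6, which in turn promote Hand2 in the distal part. BMP signalling from the distal epithelium also acts there, and FGF8 from the proximal epithelium acts at the other end of the arch. Hand2 marks the distal, ventral mesenchyme that forms the tip of the lower jaw, and a separate domain of Hand2 lies in the heart and in the second heart field, a mesodermal cell population next to the arches that adds cells to the outflow tract.

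The number of Hand2 UMIs fell off steeply over the cells. Of the 410 cells, 171 had 2 UMIs, 102 had 3, 72 had 4 and 65 had 5 or more, with a highest value of 10. Summed over the cells, Hand2 stood at 206 CPM (195 to 217), where CPM is the UMIs of a gene per 1000000 UMIs of the group. Of the other genes in the rule, Twist1 was at 611 CPM in Hand2-positive and 727 CPM in Hand2-negative cells, and Prrx1 at 376 and 304 CPM. As a guide to free RNA, 3.15% of 2065 cells with at least 2 Epcam UMIs and no Twist1 or Prrx1 had a Hand2 UMI at a median depth of 11974 UMIs, and 11 of these cells had 2 or more.

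A part of the Hand2-positive cells did not carry the profile of arch mesenchyme. In 135 of the 410 cells (32.9%) there were at least 2 UMIs over Nkx2-5, Isl1, Tbx5, Gata4, Gata5 and Gata6, transcription factors of the heart and second heart field. By contrast, 60 of the 3160 Hand2-negative cells (1.90%) met the same condition. A second marker, at least 2 UMIs over Dlx1, Dlx2, Dlx5 and Dlx6, which mark the neural crest mesenchyme of the arch, was met by 255 Hand2-positive cells (62.2%) and 2021 Hand2-negative cells (64.0%). The overlap was small: 243 cells had the Dlx marker alone, 123 the cardiac markers alone, 12 both and 32 neither. Each kind had a median of 2 or 3 Hand2 UMIs per cell. Their Hand2 levels in CPM are not compared, because Hand2 chose the cells and their median depths differed (12238 UMIs with cardiac markers alone, 17739 with the Dlx marker alone and 9798.5 with neither). The Dlx marker is one of arch crest in general and not of its distal part, and cells with it were the larger share of the 410 and not the whole, so the cells are called by their Hand2 rule. Some results are given with all 410 cells, and others only with the 275 that lacked cardiac markers.

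**Figure D1:**
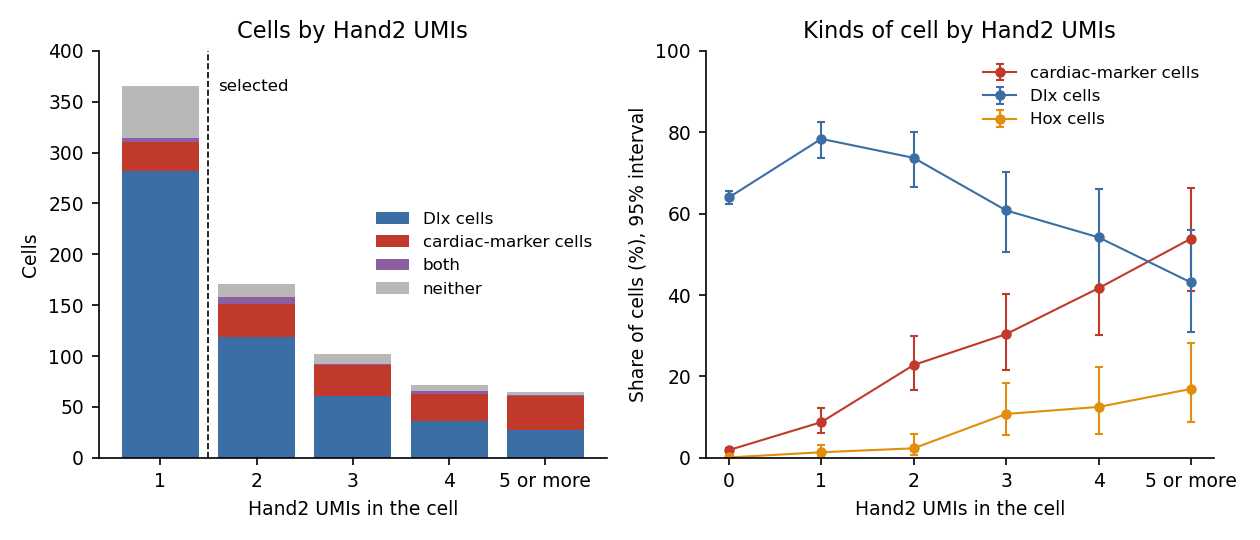
Left, number of cells (y axis) by the number of Hand2 UMIs in the cell (x axis), stacked by kind of cell, with the cells right of the dashed line selected. Right, share of cells in percent (y axis) that met the cardiac, Dlx or Hox condition at each number of Hand2 UMIs (x axis), with 95% Clopper-Pearson bars; the cardiac share goes from 1.90% at 0 UMIs to 53.8% at 5 or more.

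The share of cells with cardiac markers went up with the Hand2 count, as the plot of kinds of cell by Hand2 UMIs shows. It was 1.90% at 0 Hand2 UMIs, 8.77% at 1, 22.8% at 2, 30.4% at 3, 41.7% at 4 and 53.8% at 5 or more (interval 41.0 to 66.3). The share with the Dlx marker was 73.7% at 2 Hand2 UMIs and 43.1% at 5 or more. A stricter rule on Hand2 would thus hold a larger share of cells with cardiac markers. Hox genes, which first arch crest lacks and more posterior arches and mesoderm express, went with the cardiac group: 35 Hand2-positive cells had at least 2 UMIs over Hoxa2, Hoxb2, Hoxa3, Hoxb3 and Hoxd3, and 32 of these were among the 135 cells with cardiac markers. Epithelial cells met the cardiac condition as well, in 752 of 2065 Epcam-positive cells (36.4%). Over the 2065 Epcam-positive cells Isl1 was at 84.8 CPM, Gata6 at 1.07, Tnnt2 at 1.07 and Cdh1 at 61.5. In the 135 Hand2-positive cells with cardiac markers the same genes were at 229, 97.7, 123 and 2.82 CPM. Isl1 and Gata6 helped to choose the 135 cells, which were also required to lack Epcam, so these values describe them and test nothing. Which tissue of the dissected arches these cells came from was not tested.

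The Hand2 gene lies on chromosome 8 (chr8:57320983-57324633, plus strand, GRCm38), and a second gene, Hand2os1, starts 124 bases before it on the opposite strand. Hand2os1 was not analysed here. The results turn on 3 genes: Hand2, which selected the cells, Msx1, and Tnnt2. Summed over the cells, Tnnt2 was higher in the Hand2-positive cells with cardiac markers, but it did not help to choose them. Msx1 was called higher in Hand2-positive cells, both with all 410 and with the 275 that lacked cardiac markers. The 250 bases before the RefSeq start sites of these 3 genes are shown. They cover chr8:57320733-57320982 (plus strand), chr5:37824586-37824835 (minus strand) and chr1:135836084-135836333 (plus strand) of GRCm38.p6, each 5′ to 3′, and capitals mark matches on either strand to CANNTG (the E-box bound by basic helix-loop-helix proteins), TAATTA (a core of many homeodomain sites) and AGATAA or TGATAA (sites of the GATA type).
Hand2: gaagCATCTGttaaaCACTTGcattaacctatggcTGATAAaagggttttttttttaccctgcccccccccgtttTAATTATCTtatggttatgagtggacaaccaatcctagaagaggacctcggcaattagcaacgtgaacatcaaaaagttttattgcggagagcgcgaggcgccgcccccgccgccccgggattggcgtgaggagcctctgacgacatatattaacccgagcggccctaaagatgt
Msx1: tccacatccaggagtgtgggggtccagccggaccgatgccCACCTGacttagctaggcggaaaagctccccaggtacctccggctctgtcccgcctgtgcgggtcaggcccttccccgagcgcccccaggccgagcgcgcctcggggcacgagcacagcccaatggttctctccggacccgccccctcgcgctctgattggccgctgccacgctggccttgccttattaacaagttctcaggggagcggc
Tnnt2: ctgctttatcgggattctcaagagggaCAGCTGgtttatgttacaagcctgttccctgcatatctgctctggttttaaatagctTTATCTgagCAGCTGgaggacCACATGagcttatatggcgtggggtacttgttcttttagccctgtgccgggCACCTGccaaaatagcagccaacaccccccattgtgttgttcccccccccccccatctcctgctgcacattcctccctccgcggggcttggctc
In the Hand2 window the E-box letters lie 246 and 235 bases before the start, the GATA letters 215 and 172 bases before it, and TAATTA 175 bases before it, where it overlaps the nearer GATA match. The Msx1 window holds 1 E-box, 210 bases before the start. The Tnnt2 window holds 4 E-boxes, at 223, 157, 145 and 94 bases, and 1 GATA match at 166 bases. Among all 32851 RefSeq promoter windows of this length, 66.2% hold an E-box match, 4.84% TAATTA and 16.6% a GATA match. Of the 309 genes higher in Hand2-positive cells, 237 had a window, and the shares were 53.6%, 1.69% and 11.4%. The former shares are over every window, with genes not compared here included, and the latter over 1 window per called gene. The sets are thus unlike, and no difference between the shares is read from them. These matches are a description of letters, not of binding.

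Against the Hand2-negative cells, more genes were called higher than lower in the 410 Hand2-positive cells. A gene was compared when the mean of its CPM in both groups was at least 10, and was called higher or lower when the ratio, with 5 CPM added to both values, was at least 1.5 in either direction. A gene under 10 CPM in one group reached this level only through the group where it was high, so its call was tied to the filter, and counts of called genes in a list describe the list and support nothing. Of 7475 genes compared, 309 were higher (4.13%) and 46 were lower (0.615%). These values were for all Hand2-positive cells, the 135 with cardiac markers included. When cells with cardiac markers were left out of both groups, 95 of 7300 genes were higher (1.3%) and 49 were lower (0.671%). The comparisons share most of their cells, so their values are set side by side and are not independent.

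**Figure D2:**
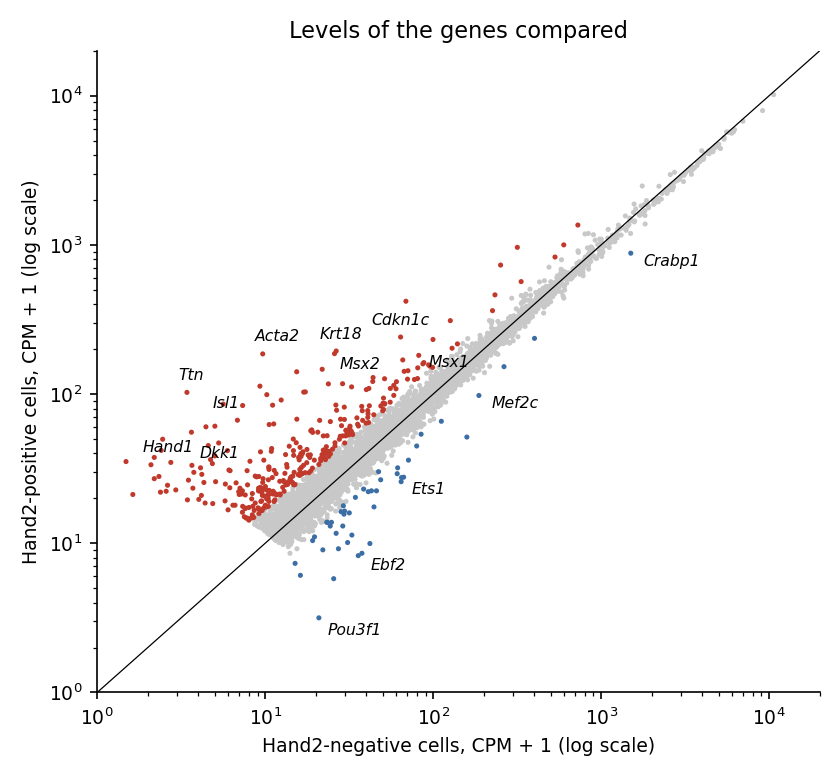
Each point is 1 of the 7475 genes compared, with its level in Hand2-negative cells (x axis) and in Hand2-positive cells (y axis), both as CPM + 1 on log scales; the line marks equal levels. The 309 genes called higher are red, the 46 called lower are blue, and Ttn, Acta2, Krt18, Isl1 and Hand1 lie far above the line, while Pou3f1 and Ebf2 lie below it.

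Some muscle genes were under 10 CPM in Hand2-negative cells and higher over the 410 cells, and were compared only through the latter. Ttn, which encodes the giant sarcomere protein titin, stood at 102 CPM (94.0 to 109.7) in Hand2-positive and 2.42 CPM (1.97 to 2.94) in Hand2-negative cells, a level 42.0-fold higher (34.0 to 52.3). Acta2, smooth muscle actin, was at 185 against 8.66 CPM, and Tnni1, a slow troponin, at 48.8 against 1.45 CPM. Among 14 genes of the heart and second heart field 7 had the mean of 10 CPM needed (Nkx2-5, Isl1, Gata6, Tnnt2, Myl7, Myl4, Actc1), and they reached it only through the Hand2-positive cells, so no count of calls is read from them. The summed level of the 14 was 295 CPM in Hand2-positive and 18.4 CPM in Hand2-negative cells. With cells with cardiac markers left out, these sums were 16.8 and 13.1 CPM, and none of the 14 reached the level needed for comparison. The cells left out were chosen on 6 of these 14 genes, so that difference in the sums was in large part fixed by the choice.

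Within the Hand2-positive cells the cells with and without cardiac markers could be set side by side. The 135 cells with cardiac markers were chosen on 6 of the genes, which were left out of this comparison. Of 7812 genes compared, 1233 (15.8%) were higher in them and 465 (5.95%) lower than in the other 275 cells. Their median depth was 12424 UMIs against 17395, and their median mitochondrial share was 2.09% against 1.46%. Of 7 dissociation stress genes compared, 4 were higher in them (Fos, Fosb, Jun, Dusp1) and 1 lower (Junb), with Fos at 41.8 against 7.22 CPM. The part of these in the differences was not tested.

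Summed over the cells, sarcomere genes were higher in the cells with cardiac markers and near 0 in the others. Over all 410 cells, 11.5% had a Tnnt2 UMI and 16.6% a Hand1 UMI, so the sums of these genes come from part of the cells. Tnnt2 and Hand1 were under 10 CPM in the cells without cardiac markers and were compared only through those with them. Tnnt2, cardiac troponin T, was at 123 CPM (107 to 141) in them and 0.85 CPM (0.232 to 2.18) in the rest. Acta2 stood at 648 against 10.4 CPM and Krt18, a simple-epithelium keratin also known from early heart tissue, at 633 against 27.8 CPM. Cdh1, the epithelial cadherin, was at 2.82 CPM in the cells with cardiac markers, and Krt5 had no UMI in any Hand2-positive cell. Hand1, the closest relative of Hand2, was at 112 CPM (96.8 to 129) in cells with cardiac markers and 2.76 CPM (1.47 to 4.72) in the others, which is 40.5-fold higher (23.1 to 77.4). In Hand2-negative cells without cardiac markers Hand1 was at 0.915 CPM (0.644 to 1.26), and in the 243 Hand2-positive cells with the Dlx marker and no cardiac markers at 0.685 CPM.

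Several signalling genes stood higher in the cells with cardiac markers. Many of them, though not Lef1, Nkd1, Meis1 or Sparc below, were under 10 CPM in the other cells and were compared only through the group where they were high, so the values are given without a count of calls. The BMP ligands Bmp4 and Bmp5 stood at 54.8 against 2.76 CPM and 90.4 against 5.74 CPM, and Bmp2 and Bmp7 were higher too. Wnt2 was at 24.3 against 1.49 CPM, and the WNT-regulated genes Lef1 and Nkd1 at 155 against 33.6 CPM and 69.5 against 10.8 CPM. Fgf8 and Fgf10, both known from the second heart field, were at 37.3 against 4.46 CPM and 20.3 against 2.55 CPM. Edn1, the endothelin ligand, was at 34.5 against 2.12 CPM. Meis1, a homeodomain cofactor, was at 179.6 against 14.9 CPM and Hoxb2 at 62.7 against 2.55 CPM. Matrix genes on the higher side included Sparc at 601 against 29.3 CPM and Col1a1 at 184 against 5.74 CPM, while Col2a1, the cartilage collagen gene, was lower at 37.8 against 69.5 CPM.

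Dlx genes and part of the crest genes were lower in cells with cardiac markers. Most Dlx genes reached the level for comparison through the other cells, so they too are given without a count of calls. Dlx5 was at 24.3 CPM (17.6 to 32.7) against 151 CPM (140.2 to 163), and Dlx2 at 7.34 against 61.4 CPM. Barx1, a homeobox gene of arch mesenchyme, was at 9.6 against 72.9 CPM, Sox9, the cartilage regulator, at 23.2 against 111 CPM, and Nr2f1, a nuclear receptor of the cranial crest, at 37.3 against 195 CPM. The crest gene Tfap2b was at 6.21 against 34.4 CPM. Of the 13 mesenchyme and crest genes compared, 7 were lower and 4 higher (Vim, Snai2, Zeb1, Zeb2), beside 5.95% and 15.8% of all genes, with Vim, which encodes vimentin, at 452 against 153 CPM. Twist1 and Prrx1, which chose both kinds of cell, were at 375 against 699.5 CPM and 288 against 409 CPM. Msx1 and Msx2 were closer: Msx1 at 104 against 157 CPM was not called, and Msx2 at 83.6 against 134 CPM was called lower.

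**Figure D3:**
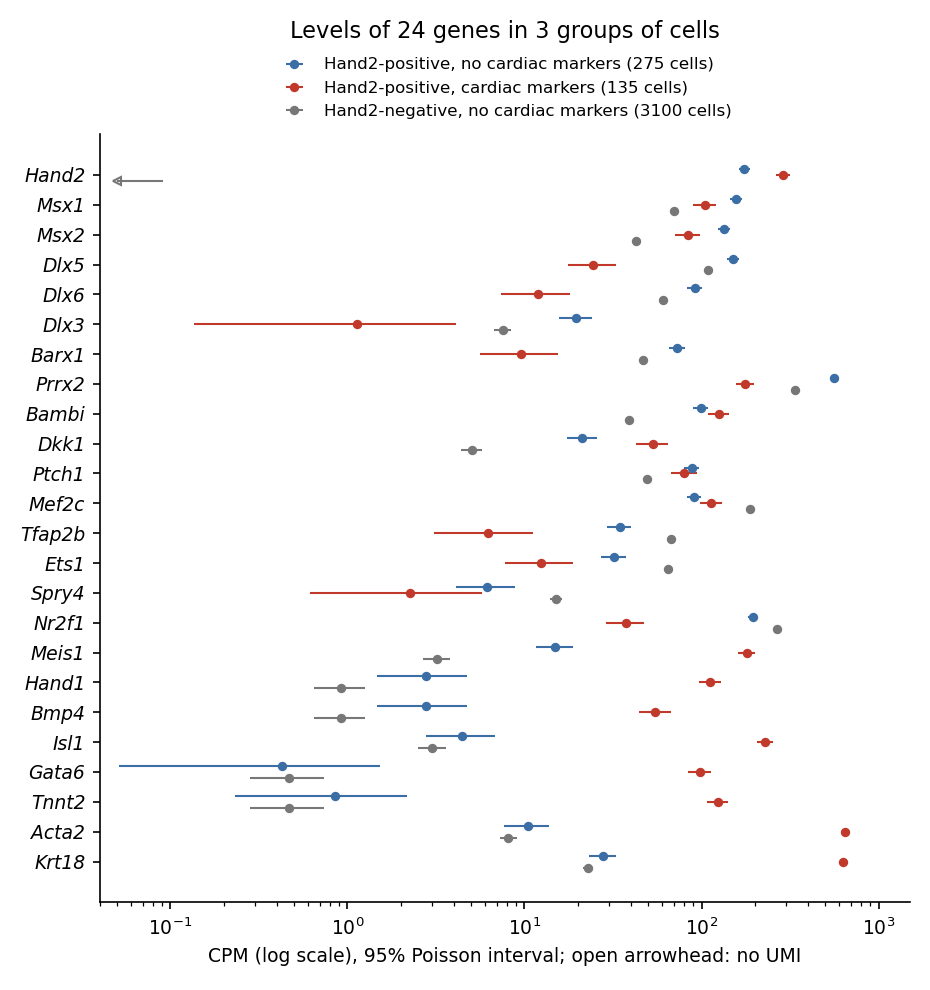
Levels of 24 genes (y axis) in CPM on a log scale (x axis), with 95% Poisson intervals, in Hand2-positive cells without (blue) and with (red) cardiac markers and in Hand2-negative cells without cardiac markers (grey). In the red group Hand1, Bmp4, Isl1, Gata6, Tnnt2, Acta2 and Krt18 lie far above both other groups (Isl1 and Gata6 helped to choose it), and Msx1, Msx2, Bambi and Ptch1 lie above the grey points in both Hand2-positive groups.

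The transcription factors of the distal arch differed in part between the 275 Hand2-positive cells and the 3100 Hand2-negative cells that lacked cardiac markers. The Dlx marker was met by 88.4% of the former and 64.8% of the latter, at median depths of 17395 and 14082.5 UMIs. In cells thinned to 3600 UMIs a Dlx5 UMI was seen in 44.2% (38.2 to 50.4) and 28.4% (26.7 to 30.1) of them. Of 12 such factors 7 were compared, and 3 were higher and none lower, beside 1.3% and 0.671% of all genes. Their median log2 ratio was 0.56, beside 0.02 over all 7300 genes. Msx2, a homeobox gene that responds to BMP, stood at 134 CPM (124 to 145) against 42.9 CPM (40.9 to 45.0), 3.13-fold higher (2.85 to 3.43). Msx1, its relative, stood at 157 CPM (146 to 168) against 70.3 CPM (67.8 to 73.0), 2.23-fold higher (2.05 to 2.41). Dlx3, compared only through the Hand2-positive cells, was at 19.5 against 7.52 CPM, 2.6-fold higher (2.04 to 3.29). Dlx5 and Dlx6, the factors that act above Hand2 in the endothelin pathway, were at 151 against 108 CPM and 91.6 against 60.7 CPM, and neither passed the 1.5-fold rule. Of the 5 factors of the intermediate arch, Barx1 was the 1 compared and was called higher, at 72.9 against 46.8 CPM. Gsc, also of that list, was at 4.04 against 1.11 CPM. Lhx6 had no UMI in the Hand2-positive cells and was at 0.0742 CPM in the Hand2-negative cells, so no difference is read from it.

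Among cells with the Dlx marker and no cardiac markers, in both groups, Msx1, Msx2, Dlx3, Bambi and Mef2c passed the rule as well. Barx1, Bmpr1b, Zeb2, Axin2, Fzd7 and Epha7, called without cells with cardiac markers, did not pass it there.

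Cells thinned to 3600 UMIs each kept the order of the Msx2 levels between Hand2-positive and Hand2-negative cells. An Msx2 UMI was then seen in 41.3% of 269 Hand2-positive cells without cardiac markers (interval 35.3 to 47.4), in 12.5% of 2761 Hand2-negative cells (11.3 to 13.8) and in 6.38% of 2023 Epcam-positive cells. The mandibular epithelium is known to express Msx genes too, so the last share is no measure of background. Before thinning the shares were 83.6%, 31.6% and 14.6%. Thinning left out 6 of the 410 Hand2-positive, 340 of the 3160 Hand2-negative and 42 of the 2065 Epcam-positive cells, which were shallower.

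Some BMP pathway genes were higher. Of 26 genes 14 were compared without cells with cardiac markers, and 4 were higher (Bmpr1b, Bambi, Msx1, Msx2), none lower and 10 not called, beside 1.3% higher and 0.671% lower of all genes. The median log2 ratio was 0.41 beside 0.02, and Msx1 and Msx2 are counted among the distal factors too. Smad4, the common SMAD, was at 120.3 against 119 CPM. Bambi, a decoy receptor and a known BMP target, stood at 98.8 CPM (90.0 to 108) against 38.9 CPM (37.0 to 40.9), 2.54-fold higher (2.28 to 2.82). Bmpr1b, a type I receptor compared only through the Hand2-positive cells, was at 14.2 against 7.64 CPM. Id3, a BMP-induced inhibitor of basic helix-loop-helix factors, was at 989 against 729 CPM and was not called, and Id2 was at 327 against 221 CPM. Of 6 helix-loop-helix partners of Hand2 compared, the Id genes included, none was called. The ligands themselves were scarce in these cells: Bmp4 was at 2.76 against 0.915 CPM and Bmp7 at 1.91 against 2.37 CPM. With all 410 cells, 6 of the 14 compared genes were higher, beside 4.13% of all genes, and Bmp5 was among them only through the cells with cardiac markers.

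In the endothelin pathway, 1 gene of 7 compared passed the rule without cells with cardiac markers, beside 1.3% higher and 0.671% lower of all genes. Mef2c, a transcription factor that acts under the endothelin receptor in the arch, was lower, at 90.7 CPM (82.3 to 99.8) against 188 CPM (184 to 192), that is 2.07-fold lower (1.88 to 2.29). With all 410 cells it was at 96.8 against 186 CPM and again called lower, and Hand1, also of this list, was called higher at 32.6 against 1.09 CPM. The receptor Ednra was at 10.6 against 15.9 CPM and was not called, and Edn1 was at 2.12 against 2.45 CPM. The G proteins Gnaq and Gna11, which carry the receptor's signal, were at 61.8 against 68.9 CPM and 71.8 against 69.2 CPM.

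Several factors of the neural crest were lower in Hand2-positive cells without cardiac markers. Of 13 mesenchyme and crest factors compared, 3 were lower (Zeb2, Tfap2b, Ets1) and 1 was higher (Prrx2), beside 0.671% and 1.3% of all genes. Zeb2 was called under 11 of 20 alternative settings. The 5 genes of migratory crest and glia summed to 24.2 CPM in these Hand2-positive cells and 41.3 CPM in Hand2-negative cells. The part of such cells in the lower crest factors was not tested. Tfap2b stood at 34.4 CPM (29.3 to 40.2) against 66.8 CPM (64.3 to 69.4), 1.94-fold lower (1.66 to 2.29), and Ets1 at 31.9 CPM (27.0 to 37.4) against 64.5 CPM (62.0 to 67.0), 2.02-fold lower (1.72 to 2.4). Prrx2, the paralogue of Prrx1, stood at 562 CPM (541 to 584) against 336 CPM (330.1 to 341), 1.67-fold higher (1.61 to 1.75). The proximal and maxillary factors Nr2f1 and Nr2f2 were at 195 against 266 CPM and 74.8 against 111 CPM. Neither was called here, though both were called lower with all 410 cells. None of the 5 proximal and maxillary factors compared was called, and Meis1 was too low to be compared at 14.9 against 3.21 CPM.

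Some FGF response genes were lower in Hand2-positive cells without cardiac markers. Of 10 FGF pathway genes compared without cells with cardiac markers, 4 were lower and none was higher, beside 0.671% and 1.3% of all genes, and the median log2 ratio was -0.43 beside 0.02. Spry4, an FGF-induced inhibitor, was at 6.16 CPM (4.13 to 8.85) against 15.1 CPM (13.9 to 16.3), 2.45-fold lower (1.69 to 3.69), and Dusp6, an ERK phosphatase, at 26.8 CPM (22.3 to 31.9) against 44.4 CPM (42.4 to 46.5), 1.66-fold lower (1.38 to 2.0). The ETS factors Etv1 and Etv5 were at 7.22 against 16.0 CPM and 10.2 against 18.0 CPM. Spry4 and Etv1 were compared only through the Hand2-negative cells, where they were above 10 CPM. The count of 4 lower genes depended on the setting: in cells thinned to 3600 UMIs 1 of the genes was lower, and 2 were when each cell had equal weight. It also depended on leaving out the cells with cardiac markers. When these were included, 1 of 10 genes compared was lower (Spry4) and none was higher. The median log2 ratio was then -0.16, beside 0.04 over all genes. The cause was not tested. The receptor Fgfr1 was at 59.9 against 46.1 CPM.

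Ptch1, the hedgehog receptor and target, stood at 88.0 CPM (79.7 to 96.9) against 49.1 CPM (47.0 to 51.3), 1.79-fold higher (1.61 to 1.99), and the co-receptor Gas1 at 101 against 57.4 CPM. These were 2 of 7 hedgehog genes compared without cells with cardiac markers. None was lower, beside 1.3% higher and 0.671% lower of all genes. Gli1, a direct target below the level for comparison, was at 7.65 against 2.55 CPM, and Shh itself at 0.212 against 0.124 CPM. When cells with cardiac markers were included, Ptch1 and Gas1 were again higher among 7 genes compared. Foxd2 was then called lower (log2 ratio -0.83), beside 4.13% higher and 0.615% lower of all genes. In the WNT pathway, 13 genes were compared without cells with cardiac markers, with Dkk1 and Axin2 higher and Fzd7 lower. Dkk1 and Axin2 were under 10 CPM in Hand2-negative cells and were compared only through the Hand2-positive cells. Dkk1, a secreted WNT inhibitor, stood at 21.2 CPM (17.3 to 25.8) against 5.04 CPM (4.38 to 5.79), 4.21-fold higher (3.28 to 5.38), and Axin2, a general WNT target, at 17.4 against 9.37 CPM. Lef1 was at 33.6 against 26.1 CPM without and 66.9 against 27.1 CPM with the cells with cardiac markers.

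The retinoid-binding genes lay on opposite sides. Crabp2 was at 150.2 CPM (139 to 162) against 75.8 CPM (73.1 to 78.5), 1.98-fold higher (1.82 to 2.15), and Crabp1 at 1042 CPM (1013 to 1072) against 1516 CPM (1504 to 1528), which did not pass the rule. With all 410 cells Crabp1 was at 878 against 1499 CPM and was called lower. Of 6 genes of the retinoic acid pathway compared without cells with cardiac markers, Crabp2 was the 1 called, beside 1.3% higher and 0.671% lower of all genes. No Notch gene of 4 compared was called, with Hes1, a Notch target, at 53.8 against 46.3 CPM.

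Guidance molecules were higher in several cases. Of 11 compared without cells with cardiac markers, 6 were higher (Sema3a, Nrp1, Robo2, Epha3, Epha7, Cxcl12) and none lower, beside 1.3% and 0.671% of all genes. Nrp1, Robo2 and Epha3 were under 10 CPM in Hand2-negative cells and were compared only through the Hand2-positive cells. In female-type cells alone (cells with Xist and no Y-linked RNA) 2 were higher and 1 lower, and in male-type cells 4 were higher. Epha3, an ephrin receptor, stood at 27.4 CPM (22.9 to 32.6) against 9.72 CPM (8.78 to 10.7), 2.82-fold higher (2.29 to 3.45). Cxcl12, a chemokine, was at 21.5 against 11.4 CPM. Of the matrix genes, 14 were compared and Col1a2, a chain of type I collagen, was higher, at 120.3 against 50.4 CPM. Col1a1, the other chain of that collagen, was at 5.74 against 2.2 CPM here and 54.5 against 2.64 CPM with all cells.

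Outside the lists, the genes named come from the 15 called genes with the largest ratio in each direction, provided that 15% or more of the higher group's cells had a UMI of the gene. Without cells with cardiac markers, the higher genes opened with Dgkk, a diacylglycerol kinase of the X chromosome, at 22.1 CPM (18.1 to 26.8) against 2.94 CPM (2.44 to 3.52), and Sct, which encodes the hormone secretin, at 18.7 CPM (15 to 23.0) against 2.35 CPM (1.9 to 2.87). The netrin receptor gene Unc5c was at 118 against 42.7 CPM, the fibrillin gene Fbn1 at 60.6 against 19.8 CPM and the helix-loop-helix factor Ebf3 at 61.4 against 23.4 CPM. Dlx6os1, a non-coding RNA antisense to Dlx6, was at 61.6 against 25.4 CPM. Others were Pcdh19, Dok5, Stk26, Meg3, Mab21l2, Frmd4b, Capn6 and Kif26a. Dgkk, Sct, Pcdh19, Dok5 and Frmd4b were compared only through the group where they were high. The same held for Pou3f1, Ebf2, Ebf1, Ccl6, Etv2 and Cpne5 among the lower genes. The place of all these genes in the order was thus tied to the filter.

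The lower genes opened with Pou3f1, a POU-domain factor, at 1.49 CPM (0.598 to 3.06) against 19.6 CPM (18.2 to 21.0), 13.2-fold lower (6.36 to 32.9). Ebf2, a relative of Ebf3, followed at 6.59 CPM (4.48 to 9.35) against 36.1 CPM (34.2 to 38.0), 5.48-fold lower (3.84 to 8.09), and Ebf1, of the same family, was at 9.99 against 24.9 CPM. Ebf1 and Ebf2 were under 10 CPM in Hand2-positive cells and were compared only through the Hand2-negative cells. No contrast with Ebf3 is therefore read from them. Plcg2, a phospholipase, was at 11.0 against 41.7 CPM, the forkhead factor Foxo1 at 11.7 against 25.5 CPM and the laminin receptor chain Itga6 at 15.7 against 35.8 CPM. The others were Ccl6, Etv2, Fam212a, Lrig3, Plcb4, Phlda1, Phactr1, Hopx and Cpne5. With all 410 cells the lower genes with the largest ratios were Pou3f1, Ebf2, Plcg2 and Etv2.

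The cells just outside the rule, with 1 Hand2 UMI, had levels of Msx2, Ebf2 and Mef2c between those at 0 and at 2 UMIs. In cells without cardiac markers with 0, 1, 2, 3 and 4 or more Hand2 UMIs (3100, 333, 132, 71 and 72 cells), Msx2 was at 42.9, 93.6, 137, 125 and 139 CPM. The values from 2 UMIs up had overlapping intervals (122 to 153 at 2 and 119 to 161 at 4 or more). Ebf2 was at 36.1, 18.1, 7.29, 7.4 and 4.63 CPM and Mef2c at 188, 120.3, 95.7, 82.2 and 90.3 CPM. Both went down from 0 to 2 Hand2 UMIs, and their intervals overlapped from there on. Col1a2 was at 50.4, 98.4, 106, 129.9 and 135 CPM, and Dlx5 at 108, 154, 152, 153 and 147 CPM. From 1 UMI up the Dlx5 values lay close together. Barx1 was at 46.8, 108, 78.4, 64.9 and 71.0 CPM, with its highest level at 1 UMI. Median depth went from 14082.5 UMIs in the first of these groups to 18280 in the last.

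Pairs of genes were also counted within single Hand2-positive cells. Among 404 Hand2-positive cells thinned to 3600 UMIs, Isl1 and Gata6 were seen together in 30 cells, 3.35 times the 8.96 cells that their separate shares give. Isl1 and Tnnt2 met in 16 cells (3.11 times) and Hand1 and Meis1 in 20 cells (2.87 times, counting interval 1.77 to 4.38). Dlx5 met Isl1 in 5 cells, 0.208 times the 24 given by the separate shares (0.392 times without thinning), and met Gata6 in 2 cells, 0.136 times. Hand1 and Dlx5 met in 2 cells (0.169 times, 0.0204 to 0.606) and Hand1 and Nr2f1 in none, where the separate shares give 12.2 cells (0.323 times without thinning). Hand1 met Msx1 in 12 cells (1.04 times) and Msx2 in 13 (0.960 times), whereas Msx2 met Isl1 in 14 cells, 0.510 times the 27.4 given by the separate shares (0.281 to 0.846, and 0.825 times without thinning). Isl1 and Gata6 were among the genes that define the cardiac markers, and the cells share 1 library.

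The pooled embryos could be divided only by sex-linked RNA, into cells with Xist and no Y-linked RNA and cells with Y-linked RNA and little or no Xist. Any UMI of these genes could place a cell, so single cells may be misplaced. Of the Hand2-positive cells, 205 were of the female type and 143 of the male type, and 88 of the former (42.9%) and 33 of the latter (23.1%) had cardiac markers. The embryos behind each type cannot be told apart. Without cells with cardiac markers, Msx2 was at 137 against 41.9 CPM in female-type and 133 against 46.8 CPM in male-type cells, and Mef2c at 94.0 against 199 CPM and 94.4 against 185 CPM. Of 73 named genes called in that comparison, 70 had the same direction in both types. The genes were called on these same cells pooled, so the count is a description. The exceptions were Cgnl1 and the haemoglobin genes Hba-x and Hbb-y. A single Hand2-positive cell held 6569 of the 7471 haemoglobin UMIs of all 410, so haemoglobin is not read as a difference.

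**Figure D4:**
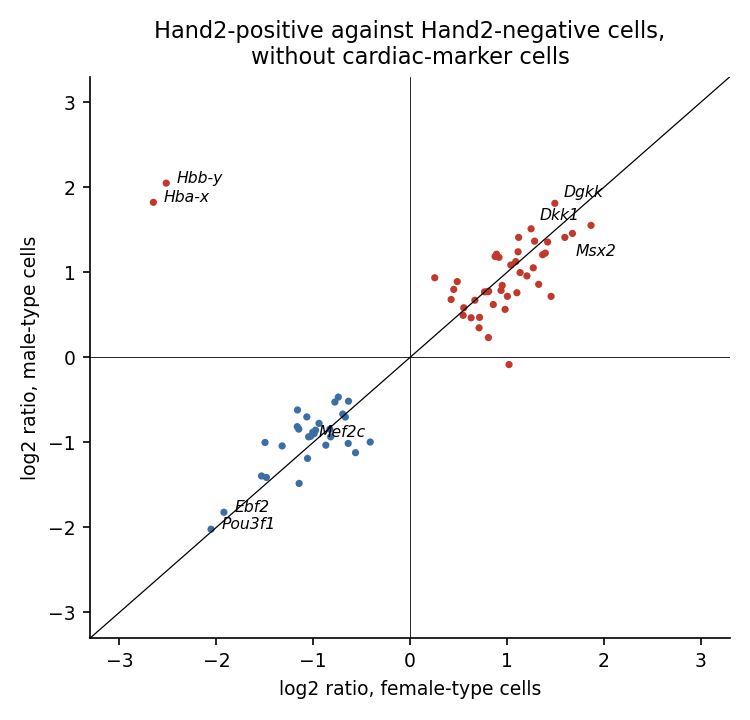
Log2 ratio of Hand2-positive to Hand2-negative cells, both without cardiac markers, in female-type cells (x axis) and in male-type cells (y axis) for the 73 named genes called higher (red) or lower (blue) in the pooled comparison; the diagonal marks equal ratios. All but 3 genes lie in the quadrants of 1 direction, and the points at the upper left are Hba-x and Hbb-y, the haemoglobin genes of which 1 cell held most UMIs among Hand2-positive cells.

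Genes of other cell types were mostly low without cells with cardiac markers. Between Hand2-positive and Hand2-negative cells, none of the 13 Hox genes reached the level for comparison. Neither did any of the 6 genes of lateral and splanchnic mesoderm, and both held with or without the cells with cardiac markers. With all 410 cells the Hox genes summed to 29.6 CPM in Hand2-positive and 0.871 CPM in Hand2-negative cells. The mesoderm genes summed to 26.9 and 3.12 CPM. Without cells with cardiac markers these sums were 5.10 and 0.816 CPM for Hox and 8.71 and 2.84 CPM for mesoderm. In Hand2-positive cells with cardiac markers they were 94.9 CPM (Hoxb2 62.7) and 75.1 CPM (Lrrn4 57.0). Without cells with cardiac markers, the 7 endothelial genes summed to 38.2 CPM in Hand2-positive and 63.2 CPM in Hand2-negative cells, of which Egfl7 gave 31.7 and 41.2, and Tie1 had no UMI in the former. The 7 epithelial genes summed to 69.1 and 54.3 CPM, with Krt8 as the most abundant in Hand2-positive and Krt18 in Hand2-negative cells. Krt5 had no UMI in the former and 1 in the latter. With all 410 cells that sum was 349 against 58.6 CPM, where Krt8 and Krt18 gave 146 and 193 CPM and Cdh1 2.01. The 6 neuronal genes summed to 4.89 and 8.38 CPM and the 4 muscle genes to 4.89 and 8.36 CPM, with Myod1 at 0. Of the crest and glial genes, Foxd3 had no UMI in the Hand2-positive cells and was at 0.272 CPM in the Hand2-negative cells. The blood genes summed to 1511 and 878 CPM, with Ptprc at 0. The part of any of these in the results was not tested.

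None of 17 S phase genes and none of 15 mitosis genes was called between Hand2-positive and Hand2-negative cells, with all cells or without those with cardiac markers. Of all genes, 4.13% were higher and 0.615% lower with all cells, and 1.3% and 0.671% without those with cardiac markers. At those shares a list of this size would hold few or no calls. Between Hand2-positive cells with and without cardiac markers, 4 of 17 S phase genes were lower in the former (Mcm2, Rrm2, Ung, Cdca7). In the same comparison 4 of 5 D cyclins and inhibitors were higher (Ccnd2, Ccnd3, Cdkn1b, Cdkn1c), beside 15.8% higher and 5.95% lower of all genes. Of 15 mitosis genes 2 were higher (Mki67, Cenpf), a share no larger than that over all genes. Against Hand2-negative cells Cdkn1c, a cyclin-dependent kinase inhibitor, was higher in both comparisons, at 240.1 against 63.0 CPM with all cells and 104 against 59.3 CPM without those with cardiac markers. Of 6 dissociation stress genes compared with all cells, Fos (16.7 against 6.34 CPM) and Jun (153 against 94.5 CPM) were higher, beside 4.13% of all genes, and none of 4 was called without cells with cardiac markers. Of the Hand2-positive cells, 3 were called doublets, and 4 of their barcodes were also present in the E12.0 library.

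No cell of the E12.0 epithelial library met the rule. Of 11355 kept cells there, 4 had any Hand2 UMI and none had 2, and with 3 counts as the floor 0 cells allow a share of up to 0.0264%. The sort for epithelial cells at E12.0 sets this share, so it says nothing about Hand2 in E12.0 mesenchyme.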

How the data were processed

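The authors counted the reads of each 10x Genomics 3′ library with Cell Ranger against GRCm38/mm10 and deposited filtered matrices of UMI counts, which are the values used here. Their processing notes name version 2.0.0, and the file headers name 6.1.2 for E9.5 and 3.1.0 for E12.0. Cells with 200 to 5500 genes and at most 10% mitochondrial UMIs were kept, 12744 of 14293 E9.5 barcodes. The upper gene limit was passed by 1129 barcodes and the mitochondrial limit by 418. Counts were summed over the cells of a group and given as CPM with exact Poisson intervals, and folds are CPM ratios with exact conditional intervals. Ratios used for calls had 5 CPM added. No model was fitted, since cells of 1 library are not replicates. Scrublet (scanpy 1.11.5) called 331 doublets (2.60%), which were kept, and 51 barcodes were shared between the libraries. Shares were compared after thinning to 3600 UMIs, the 10th percentile. The comparison was tested on simulated data. Members and the 28 gene lists were chosen with earlier results of these data known, and the Dlx marker after the data were seen. Genes named are the 9 rule genes, genes of those lists, and the 15 called genes outside them with the largest ratio each way, and some of these are not reported here. Python 3.11.15, numpy 2.4.6, scipy 1.17.1 and pandas 2.3.3 were used. Promoters came from RefSeq, and gene positions from GENCODE.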

Additional observations from a re-analysis of the deposited data

How the results depend on the processing

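With 410 cells in the main selection, at least 3 Hand2 UMIs gave 239 cells, at least 1 gave 775, and the rule on thinned counts gave 67. The count of higher genes, 309, became 189 with at least 1 Hand2 UMI, 572 with the rule on thinned counts, 95 without cells with cardiac markers, 75 in Dlx cells without cardiac markers, 473 with each cell at equal weight, 574 in thinned cells, 176 with 20 CPM added, 558 and 73 with a mean of at least 1 and 50 CPM, and 143 at a ratio of 2. The count of lower genes, 46, became 173 with the rule on thinned counts, 73 in cells of middle depth, 73 in female-type cells, 93 in thinned cells, 23 with 20 CPM added, 85 and 9 with a mean of at least 1 and 50 CPM, and 14 at a ratio of 2. Leaving out cells with cardiac markers also turned the sign of the log2 ratios of Ephb2 (-0.10), Nkx2-5 (-0.014), Gata6 (-0.012), Myl7 (-0.13) and Actc1 (-0.48). Nkx2-5 and Gata6 helped to choose the cells left out, so the loss of their ratios was in large part fixed by the choice. Nkx2-5, Gata6, Myl7 and Actc1 were then below the level for comparison, and no difference is read from them. In Dlx cells without cardiac markers the ratios that turned were those of Hand1 (-0.042), Col1a1 (-0.15), Ephb2 (-0.12), Gata6 (-0.071), Tnnt2 (-0.11), Myl7 (-0.10), Myl4 (-0.042), Actc1 (-0.29), Krt8 (-0.037), Krt18 (-0.37), 3632451O06Rik (-0.15), Cgnl1 (-0.059), Tnni1 (-0.15), Nexn (-0.081) and Tgfb2 (-0.068). In male-type cells Myl7 (-0.083) and Actc1 (-0.42) turned. Without cells with cardiac markers, Hba-x and Hbb-y turned under the rule on thinned counts (-1.58 and -0.92), in cells of middle depth (-2.68 and -2.48), in female-type cells (-2.65 and -2.52) and without cells rich in haemoglobin (-0.20 and -0.15). The cause was not tested. In that comparison Msx1 (0.71 to 1.23), Msx2 (1.06 to 1.63), Bambi (0.97 to 1.43), Ptch1 (0.59 to 1.11) and Mef2c (-1.16 to -0.79) kept their call under all 20 alternatives, Dkk1 under 19, Barx1 under 10, Zeb2 under 11, Bmpr1b, Axin2, Fzd7 and Epha7 under 12 each (Bmpr1b at 0.15 in thinned cells, Epha7 at 0.088 under the rule on thinned counts), and Dusp6, Spry4, Etv1 and Etv5 under 14 each. The Dlx split and the exclusion of cells rich in haemoglobin were chosen after seeing the data. Each stage is 1 library of pooled embryos, so the spread between embryos is unknown. No paired analysis was possible because the stages have 1 sample each.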
